A study of Mus musculus with 4 samples.

Results

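Many immune cells read their surroundings through families of receptors whose genes lie side by side in the genome. In cultured mouse myoblasts, 58 of the 24445 genes in the expression table carried a name that begins with Fcgr, Fcer, Ms4a, Cd300, Trem, Siglec, Lilr, Pira or Pirb, and these 58 were taken as the receptor genes, by name alone. They comprised 8 Fcgr and Fcer genes, 17 Ms4a genes, 10 Cd300 genes, 6 Trem and Treml genes, 6 Siglec genes and 11 Lilr and Pir genes. The question was which of them were detected in myoblasts, which leukocyte class the detected ones mark, and how their levels stood in myoblasts without functional Tet2.

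The RNA-seq data of primary myoblasts came from 2 libraries per genotype, WT or Tet2 KO, all of the C57BL/6 strain per the labels. Tet2 oxidises 5-methylcytosine in DNA, and the Tet2 KO mice lacked exon 3 of the gene in every cell, blood cells included, while the other group was wild type. For both genotypes, hindlimb satellite cells, the stem cells of muscle, were sorted for CD34 and integrin alpha 7 and against propidium iodide, CD45, CD11b, CD31 and Sca1, and then grown on collagen for at least 3 days in a medium the labels call T cell medium, until they were MyoD+ myoblasts. The study's methods give males aged 8 to 10 weeks as its default animals and name no other age or sex for these libraries. Whether libraries of a group came from separate animals or cultures is not given in the sources used here.

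Expression stood as 1 FPKM value per gene and group (fragments per kilobase of transcript, scaled to the number of mapped fragments), which combines the libraries of that group. No value per library was used, so no replicate error, depth or test stands beside any value, and every difference below is a description of these combined libraries. Differences are given as the ratio of FPKM values and as log2((Tet2 KO FPKM + 1) / (WT FPKM + 1)), named the log2 ratio, where 1 means a 2-fold difference and where the added 1 understates the difference of genes with low values. Where a pair of FPKM values follows a gene without group names, the first is that of Tet2 KO. Tet2 itself stood at 5.79 FPKM in Tet2 KO against 6.64 FPKM in WT, a value over the whole gene that does not isolate the deleted exon and so does not check the genotype.

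Fc receptors bind the constant part of antibodies. Activating receptors of these families signal through adaptors such as Fcer1g and Tyrobp, whose tyrosine motif (ITAM) recruits the kinase Syk, while inhibitory receptors carry a different tyrosine motif (ITIM) that recruits the phosphatases Ptpn6 and Inpp5d. Most members are used by macrophages, monocytes, neutrophils, mast cells, B cells or dendritic cells. PU.1, the master transcription factor of myeloid cells, binds purine-rich sequences with a GAGGAA core.

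The sequence before the gene's start was available for 46 of the 58 receptor genes (RefSeq, GRCm38.p6), and 12 had no match by symbol. The 250 bases before the start were searched on both strands for 4 sets of letters. GAGGAA, the core bound by PU.1, was found in 24 of the 46 receptor genes (52.2%), against 25.9% of 27025 genes in the promoter table. Its longer form GAGGAAGT, every match of which is also a GAGGAA match, was found in 8 of 46 (17.4%), against 2.79% of all genes. The palindrome TTGCGCAA, bound by C/EBP factors, was found in none of the 46 and in 0.185% of all genes, and CAGCTG, an E box of the kind bound by MyoD, in 7 of 46 (15.2%) and 14.7% of all genes. GAGGAA was about as frequent in the receptor genes with at least a 2-fold higher level in Tet2 KO (8 of 15, 53.3%) as in the others (16 of 31, 51.6%). GAGGAAGT was no more frequent in the higher ones (2 of 15, 13.3%) than in the others (6 of 31, 19.4%). Neighbouring receptor genes share ancestry, so their sequences are not independent, and a match of letters is not a binding site.

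The windows printed here are 3 from receptors that were at least 2-fold higher in Tet2 KO and that hold the core, and that of Fcgrt, which was not higher and holds none. Each is the stretch of 250 bases before the start, 5′ to 3′ on the gene's strand, placed on mm9 by an exact match. Capitals mark GAGGAA or its reverse complement TTCCTC.
Fcgr4, chr1:172948807-172949056 (plus strand): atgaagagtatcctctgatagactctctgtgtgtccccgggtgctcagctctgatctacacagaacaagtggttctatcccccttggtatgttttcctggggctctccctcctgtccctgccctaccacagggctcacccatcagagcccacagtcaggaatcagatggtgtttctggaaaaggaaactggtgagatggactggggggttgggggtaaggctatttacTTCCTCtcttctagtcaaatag
Fcgr3, chr1:172989535-172989784 (minus strand): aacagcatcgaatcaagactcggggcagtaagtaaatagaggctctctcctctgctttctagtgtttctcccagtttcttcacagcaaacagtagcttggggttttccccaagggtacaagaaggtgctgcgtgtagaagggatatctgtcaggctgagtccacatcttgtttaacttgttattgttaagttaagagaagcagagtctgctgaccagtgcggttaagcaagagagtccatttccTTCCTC
Pirb, chr7:3671985-3672234 (minus strand): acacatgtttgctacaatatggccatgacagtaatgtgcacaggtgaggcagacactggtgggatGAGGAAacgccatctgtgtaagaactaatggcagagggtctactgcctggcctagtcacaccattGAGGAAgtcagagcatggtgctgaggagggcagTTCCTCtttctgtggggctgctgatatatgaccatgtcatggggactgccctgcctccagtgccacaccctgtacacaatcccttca
Fcgrt, chr7:52359193-52359442 (minus strand): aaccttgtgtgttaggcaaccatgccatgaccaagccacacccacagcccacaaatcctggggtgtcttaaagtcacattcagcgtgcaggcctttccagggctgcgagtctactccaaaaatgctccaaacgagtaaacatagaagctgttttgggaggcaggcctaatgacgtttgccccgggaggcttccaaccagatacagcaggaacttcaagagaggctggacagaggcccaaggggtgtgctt
The Fcgr3 window is that of the upstream of 2 listed starts and ends in the core itself, while the Pirb window holds 3 cores, 1 of them within the longer form, as is the core of Fcgr4. Pirb and Fcgr4 are the only receptor genes at least 2-fold higher that hold the longer form, so these windows do not stand for the rest.

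Of the 58 receptor genes, 55 were above 0 in at least 1 group, 51 in Tet2 KO, 52 in WT and 48 in both. Cd300ld5, Pira4 and Pira6 were listed at 0 in both groups. Most values were low. At 1 FPKM or more in either group stood 24 genes, all 24 in Tet2 KO and 13 of them in WT, and the other 34 were under 1 FPKM in both groups, with medians of 0.0814 FPKM in Tet2 KO compared with 0.0320 FPKM in WT. A gene above 0 at such a level can rest on very few reads, and the number of reads is unknown. Over all 24445 genes, 20396 were above 0 in at least 1 group and 12502 were under 1 FPKM in both. Low values were thus not particular to the receptor genes.

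Receptor genes were mostly higher in Tet2 KO. Of the 58, 43 (74.1%) had a higher FPKM in Tet2 KO, 12 had a lower one and 3 were equal, whereas 39.7% of all 24445 genes were higher. At least 2-fold higher on the log2(FPKM + 1) scale were 18 receptor genes (31.0%), where 1.02% of all genes were (249 genes), and none was at least 2-fold lower, where 0.585% of all genes were (143 genes). Among all genes with a mean of at least 1 FPKM over the groups, 2.08% were at least 2-fold higher. The median log2 ratio was 0.22 over the 58 receptor genes and 0 over all genes. For the 18 genes, the FPKM ratio ran from 3.39 (Fcer1g) to 7.83 (Pirb) with a median of 4.18. Just inside the 2-fold line lay Cd300c2, with a log2 ratio of 1.12, and just outside it Cd300lb, with 0.81.

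**Figure D1:**
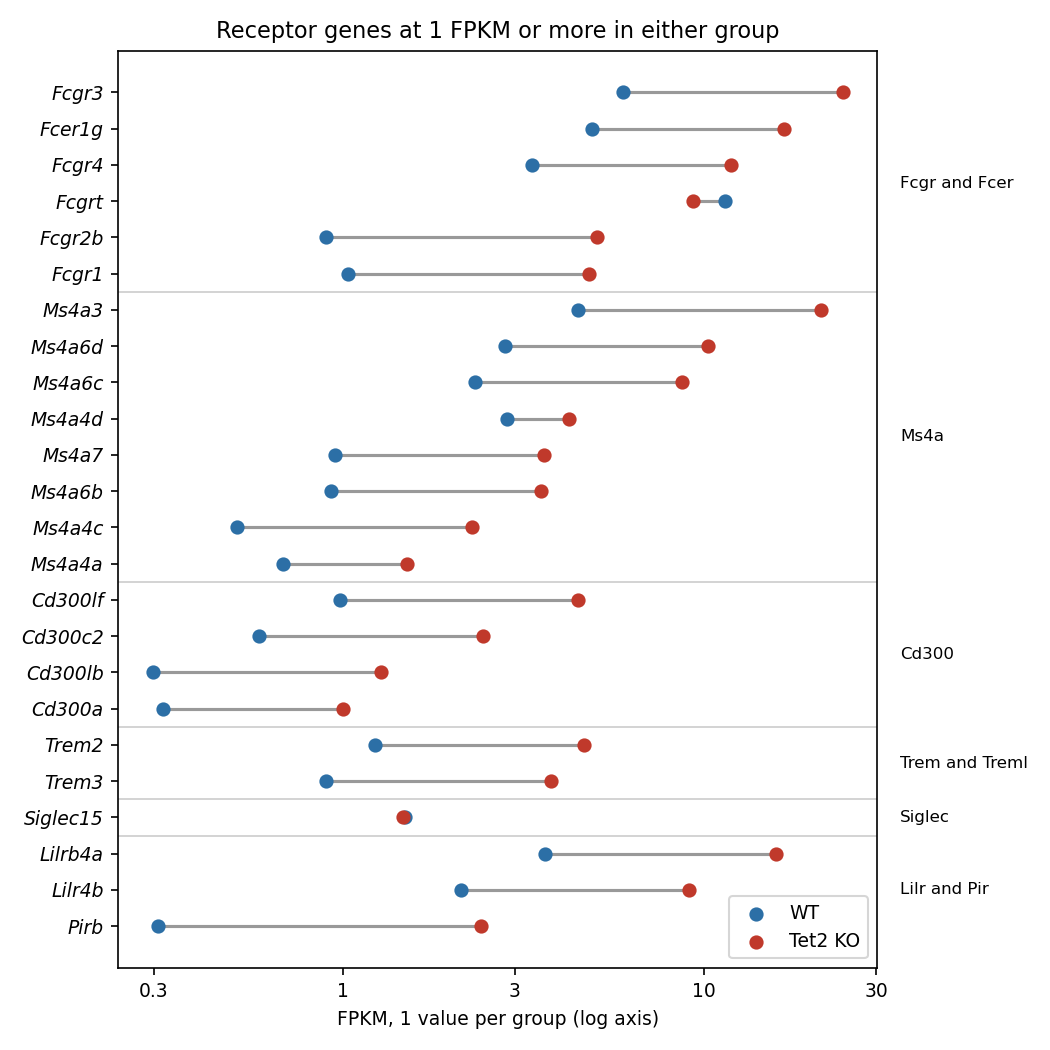
FPKM of the 24 receptor genes at 1 FPKM or more in either group, on a log axis, with 1 point per group (blue WT, red Tet2 KO) joined by a line, grouped by family. The red point lies to the right for 22 of the 24 genes, and Fcgrt and Siglec15 are the 2 exceptions. All 24 reached 1 FPKM in Tet2 KO and 13 in WT, so the choice of genes itself favours this direction. Without that choice, 43 of the 58 receptor genes were higher in Tet2 KO (74.1%), where 39.7% of all genes were.

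The summed FPKM of the 58 genes was 179.8 in Tet2 KO and 57.1 in WT, a ratio of 3.15. Fcgrt, a transport receptor of many cell types, made up 5.19% of this sum in Tet2 KO and 20.0% in WT, and without it the ratio was 3.73. The 3 genes highest in Tet2 KO, Fcgr3, Ms4a3 and Fcer1g, made up 34.5% of the sum in Tet2 KO and 26.9% in WT. In a bulk sample, more cells of a type and more RNA per cell cannot be told apart.

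**Figure D2:**
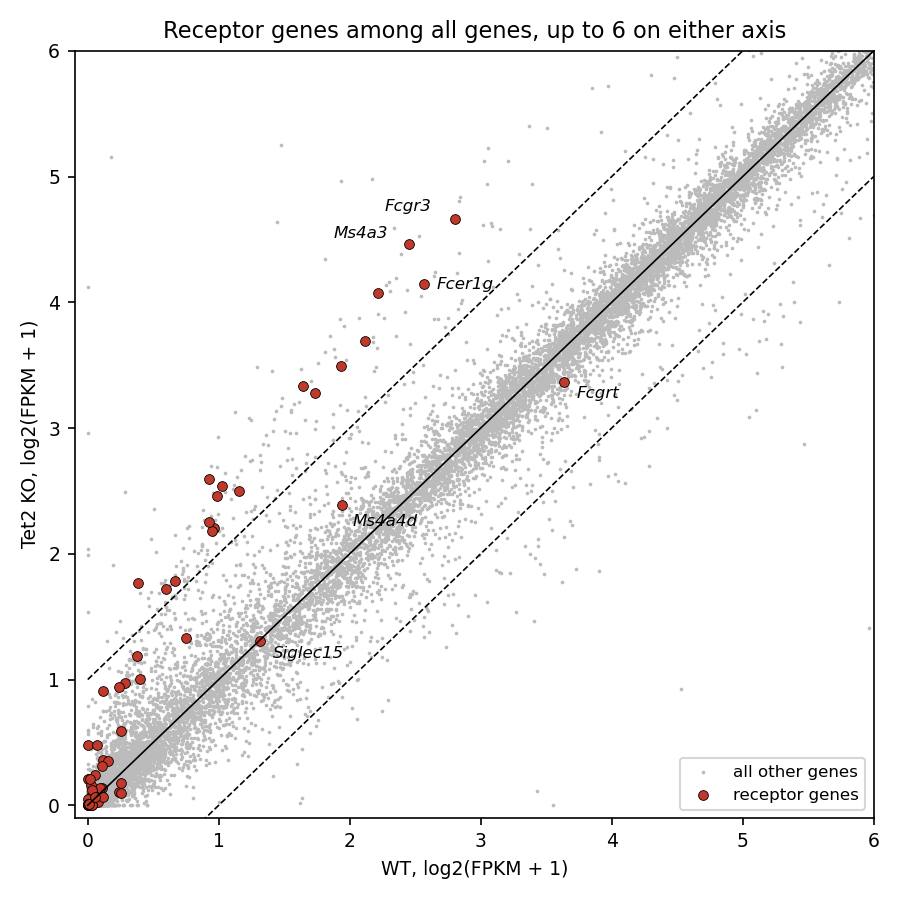
Each gene's log2(FPKM + 1) in WT (x axis) and Tet2 KO (y axis), with receptor genes in red, all other genes in grey, the solid line at equality and dashed lines at 2-fold either way, drawn up to 6 on both axes. Of the 58 receptor genes, 18 lie above the upper dashed line and none below the lower one.

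The IgG receptors of myeloid cells led the Fc receptor family. Fcgr3 (CD16), a low affinity activating receptor, was the most abundant receptor gene, with 24.3 FPKM in Tet2 KO against 5.98 FPKM in WT, a 4.05-fold difference in FPKM and a log2 ratio of 1.85. Its signalling subunit Fcer1g, the ITAM adaptor shared by IgG and IgE receptors, stood at 16.7 FPKM in Tet2 KO compared with 4.91 FPKM in WT, 3.39-fold higher. Fcgr4, an activating receptor of monocytes, macrophages and neutrophils, stood at 11.9 FPKM in Tet2 KO against 3.33 FPKM in WT, 3.57-fold higher. The high affinity receptor Fcgr1 (CD64), a macrophage and monocyte marker, was close to the 1 FPKM line in WT, with 1.04 FPKM against 4.82 FPKM in Tet2 KO, 4.64-fold higher. The inhibitory receptor Fcgr2b (CD32B), which opposes the others through its ITIM, stood at 5.05 FPKM in Tet2 KO compared with 0.901 FPKM in WT, 5.60-fold higher. Activating and inhibitory IgG receptors were thus both higher in Tet2 KO. All 5 were at least 2-fold higher, with log2 ratios between 1.51 (Fcgr1) and 1.85 (Fcgr3).

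The other 3 genes of the family were lower in Tet2 KO. Fcgrt, the neonatal Fc receptor that recycles IgG and albumin, stood at 9.34 FPKM in Tet2 KO against 11.4 FPKM in WT, a log2 ratio of -0.27, the lowest of all 58 receptor genes. Fcer1a, the IgE-binding chain that mast cells and basophils display, stood at 0.130 FPKM in Tet2 KO compared with 0.190 FPKM in WT. Fcer2a (CD23), the low affinity IgE receptor of B cells, stood at 0.0679 FPKM in Tet2 KO against 0.192 FPKM in WT. The median log2 ratio of the 8 genes was 1.54.

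Ms4a genes encode proteins that span the membrane repeatedly, and they mark different blood lineages. Ms4a3, expressed in granulocyte and monocyte precursors, had the highest log2 ratio of all receptor genes, 2.01, with 21.1 FPKM in Tet2 KO compared with 4.47 FPKM in WT. It was the only one of the 58 past 4-fold on that scale, as were 24 of all genes. The Ms4a6 genes are found in monocytes and macrophages. Ms4a6d stood at 10.2 FPKM in Tet2 KO against 2.82 FPKM in WT, 3.64-fold higher. Ms4a6c stood at 8.68 FPKM in Tet2 KO compared with 2.33 FPKM in WT, 3.73-fold higher, and its neighbour Ms4a6b at 3.54 FPKM and 0.929 FPKM, 3.81-fold higher. Ms4a7, a macrophage marker, stood at 3.60 FPKM in Tet2 KO against 0.951 FPKM in WT, 3.79-fold higher. Ms4a4c stood at 2.29 FPKM in Tet2 KO compared with 0.510 FPKM in WT, 4.48-fold higher. These 6 genes were the Ms4a genes past 2-fold.

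A pair of Ms4a genes above 1 FPKM differed less. Ms4a4d stood at 4.24 FPKM in Tet2 KO against 2.84 FPKM in WT, 1.49-fold higher with a log2 ratio of 0.45. Ms4a4a stood at 1.51 FPKM in Tet2 KO compared with 0.685 FPKM in WT, with a log2 ratio of 0.58. In WT only Ms4a3 stood above Ms4a4d in the family, and in Tet2 KO Ms4a6d and Ms4a6c did as well.

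The Ms4a genes that mark lymphocytes or mast cells were near 0. Ms4a1 (CD20), the classical B cell marker, was at 0.00959 FPKM in Tet2 KO and listed at 0 in WT. Ms4a2, the beta chain of the mast cell IgE receptor, stood at 0.0992 FPKM in Tet2 KO against 0.0656 FPKM in WT. Ms4a4b, a T cell gene, was the highest Ms4a gene under 1 FPKM, with 0.119 FPKM in Tet2 KO compared with 0.0171 FPKM in WT. Ms4a5, Ms4a13, Ms4a15 and Ms4a18 were listed at 0 in Tet2 KO and above 0 in WT, and Ms4a8a and Ms4a10 completed the family under 1 FPKM. With 9 of 17 genes under 1 FPKM, the family's median log2 ratio was 0.14.

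Cd300 genes encode receptors for lipids and dying cells on myeloid cells. The inhibitory receptor Cd300lf was the highest, with 4.48 FPKM in Tet2 KO against 0.983 FPKM in WT, 4.56-fold higher with a log2 ratio of 1.47. Cd300c2 stood at 2.45 FPKM in Tet2 KO compared with 0.588 FPKM in WT, 4.16-fold higher. These were the Cd300 genes past 2-fold. The activating receptor Cd300lb stood at 1.28 FPKM in Tet2 KO against 0.298 FPKM in WT, and the inhibitory receptor Cd300a at 1.01 FPKM and 0.318 FPKM, so that their FPKM ratios of 4.28 and 3.16 gave log2 ratios of only 0.81 and 0.61. Cd300ld, a myeloid receptor and the highest Cd300 gene under 1 FPKM, stood at 0.878 FPKM in Tet2 KO compared with 0.0855 FPKM in WT.

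The remaining Cd300 genes were near 0. Cd300e, a monocyte receptor, stood at 0.0614 FPKM in Tet2 KO against 0.0206 FPKM in WT. Cd300lg, which is found on endothelium and lies away from the other Cd300 genes, was lower in Tet2 KO, with 0.0166 FPKM against 0.0569 FPKM. Cd300c and Cd300ld3 were also under 1 FPKM, Cd300ld5 was listed at 0, and the median log2 ratio of the 10 genes was 0.33.

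Several TREM receptors, among them Trem2, pair with the ITAM adaptor Tyrobp. Trem2, a lipid sensor of macrophages, stood at 4.66 FPKM in Tet2 KO compared with 1.23 FPKM in WT, 3.79-fold higher with a log2 ratio of 1.34. Trem3 stood at 3.77 FPKM in Tet2 KO against 0.898 FPKM in WT, 4.20-fold higher with a log2 ratio of 1.33. Trem1, an amplifier of inflammation on neutrophils and monocytes, stayed under 1 FPKM, with 0.919 FPKM in Tet2 KO compared with 0.180 FPKM in WT. Treml2 was the highest of the family under 1 FPKM, with 0.963 FPKM in Tet2 KO against 0.216 FPKM in WT. Treml1, a platelet receptor, stood at 0.0447 FPKM in Tet2 KO compared with 0.0409 FPKM in WT, and Treml4 completed the family under 1 FPKM. The median log2 ratio of the 6 genes was 0.70.

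**Figure D3:**
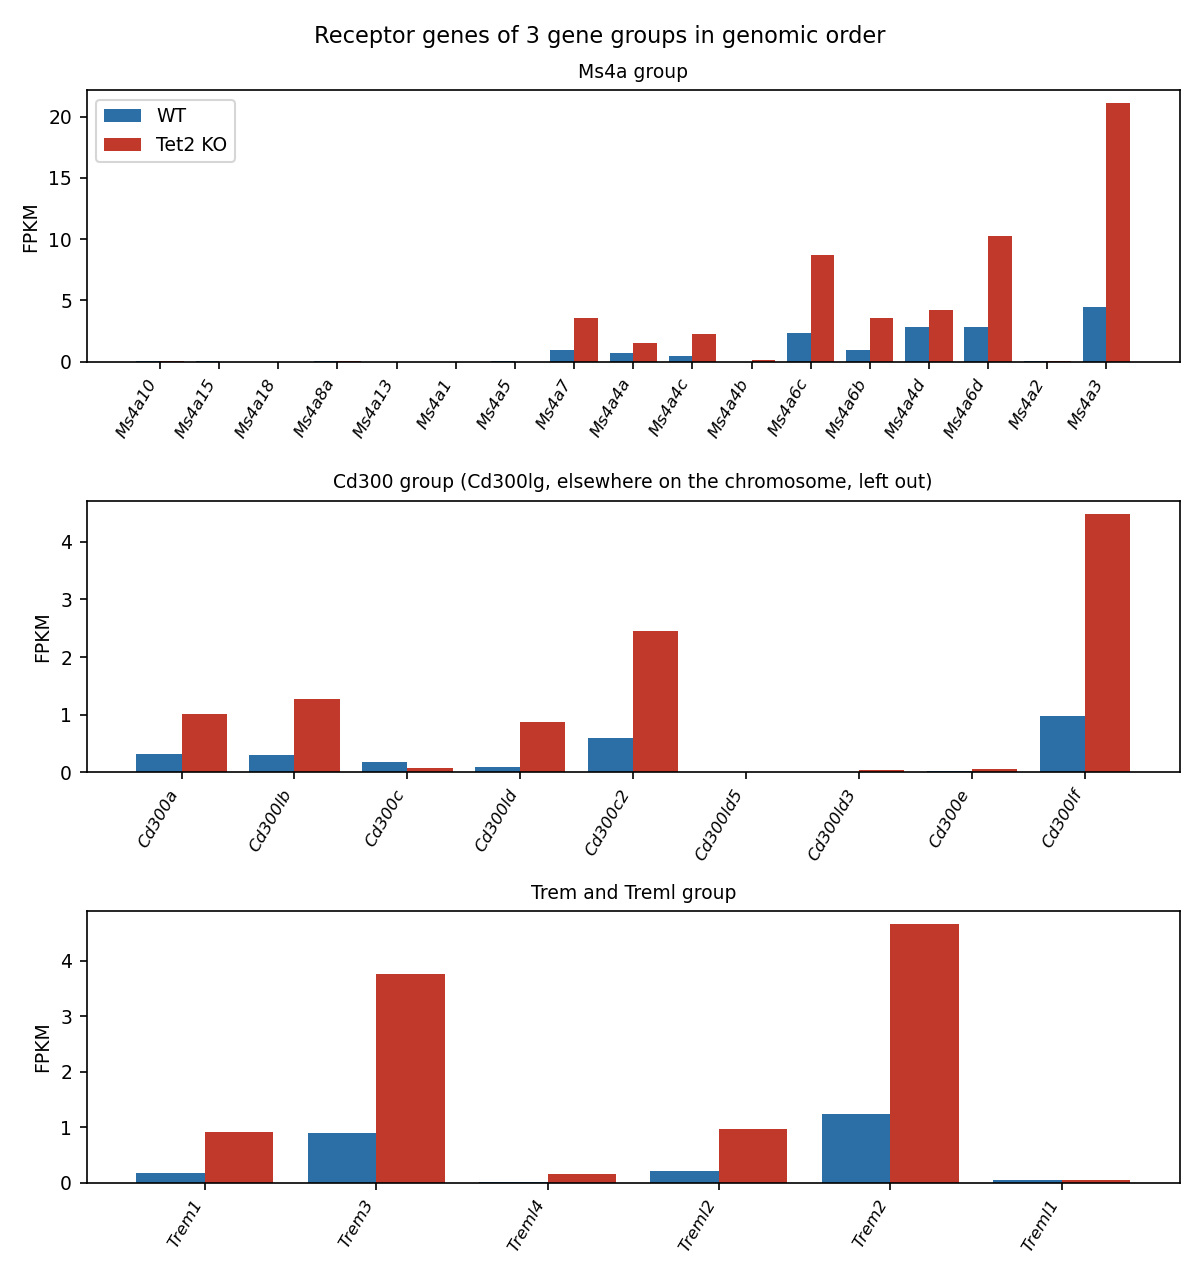
FPKM in WT (blue bars) and Tet2 KO (red bars) of the Ms4a genes (top), the Cd300 genes other than Cd300lg (middle) and the Trem and Treml genes (bottom), in their order along the chromosome. Genes with high Tet2 KO values stand beside genes near 0, as Ms4a3 (21.1 FPKM in Tet2 KO) beside Ms4a2 (0.0992 FPKM).

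Siglecs bind sialic acid and mostly inhibit the cell that carries them. Siglec15, a Tyrobp-coupled receptor of osteoclasts, was the only Siglec gene at 1 FPKM or more, and it stood at 1.47 FPKM in Tet2 KO against 1.49 FPKM in WT, a log2 ratio of -0.01. The others were under 1 FPKM. Siglecg, found on B cells, stood at 0.508 FPKM in Tet2 KO compared with 0.191 FPKM in WT. Siglec1 (sialoadhesin), a macrophage receptor, stood at 0.394 FPKM in Tet2 KO against 0.0527 FPKM in WT. Siglecf, the eosinophil marker, stood at 0.0888 FPKM in Tet2 KO compared with 0.0232 FPKM in WT. Siglech, the marker of plasmacytoid dendritic cells, stood at 0.00893 FPKM in Tet2 KO against 0.00897 FPKM in WT. No Siglec gene was at least 2-fold higher, Siglece completed the family, and its median log2 ratio was 0.14.

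Lilr and Pir genes encode paired inhibitory and activating receptors for MHC class I and related ligands. Lilrb4a, an inhibitory receptor of myeloid cells, stood at 15.8 FPKM in Tet2 KO compared with 3.64 FPKM in WT, 4.34-fold higher with a log2 ratio of 1.86. Its close paralog Lilr4b stood at 9.09 FPKM in Tet2 KO against 2.13 FPKM in WT, 4.27-fold higher. The inhibitory receptor Pirb stood at 2.41 FPKM in Tet2 KO compared with 0.308 FPKM in WT. Its FPKM ratio of 7.83 was the largest of the 24 genes at 1 FPKM or more, and its log2 ratio was 1.38. The activating Pira genes were all under 1 FPKM, and the highest of them, Pira2, stood at 0.391 FPKM in Tet2 KO and at nearly 0 in WT. Pira1, Pira7, Pira11, Lilra5 and Lilra6 were also under 1 FPKM, Pira4 and Pira6 were listed at 0, and the median log2 ratio of the 11 genes was 0.21.

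Some of these values are uncertain because genes share sequence. Of the 50 receptor genes with a transcript in the GENCODE vM1 annotation of the same build, 7 had at least 50% of the transcript covered by stretches of at least 95% identity and 100 bases in the transcripts of other genes, namely Cd300ld3, Cd300ld5, Lilrb4a, Lilr4b, Pirb, Pira2 and Lilra6. How reads were divided between such copies is not given in the sources used here, so the Lilrb4a and Lilr4b values may not be separate measurements. Fcgr3 and Fcgr2b shared stretches covering 37.8% and 31.9% of their transcripts, and 38 genes shared none. Pira1, Pira2, Pira4, Pira7, Pira11 and Lilra6 were also listed under a single locus, chr7:3683235-3867103 (mm9).

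The detected receptors were then grouped by the leukocyte class they mark. The 3 myeloid classes, general myeloid, macrophage or monocyte, and neutrophil or granulocyte precursor, held 21 receptor genes. All 21 were higher in Tet2 KO, where 39.7% of all genes were, and 17 reached 1 FPKM in either group, as did 11943 of all 24445 genes. At least 2-fold higher were 15, where 1.02% of all genes were. Among the general myeloid receptors, from Fcgr3 to Cd300a, 9 of 12 were past 2-fold and their summed FPKM was 94.3 in Tet2 KO and 23.5 in WT. Among the macrophage or monocyte receptors, Fcgr1, Fcgr4, Ms4a7 and Trem2 were past 2-fold and Siglec1 and Cd300e were not, and the sums were 25.4 and 6.63 FPKM. Fcgr4, which neutrophils also carry, held 11.9 and 3.33 FPKM of these sums. Among the neutrophil or granulocyte precursor receptors, Ms4a3 and Trem3 were past 2-fold and Trem1 was not, and the sums were 25.8 and 5.55 FPKM. Ms4a3, which monocyte precursors also express, held 21.1 and 4.47 FPKM of these sums, and monocytes also carry Trem1. Siglec1, Cd300e and Trem1 were under 1 FPKM in both groups, where the log2 ratio cannot reach 1. Their FPKM ratios were 7.48, 2.99 and 5.10.

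Receptors of the other classes were low in both groups. The 10 genes that mark mast cells or basophils, B cells, eosinophils, plasmacytoid dendritic cells, T or NK cells, platelets or endothelium were all under 1 FPKM, at most 0.508 FPKM in Tet2 KO (Siglecg) and 0.192 FPKM in WT (Fcer2a). Under 1 FPKM in both groups were also 12502 of all 24445 genes. Of the 10 genes, 6 were higher in Tet2 KO, where 39.7% of all genes were, and 4 were lower. None was past 2-fold, where 1.02% of all genes were at least 2-fold higher and 0.585% lower. Under 1 FPKM in both groups the log2 ratio cannot reach 1, so this count does not show that they were alike between groups. The 25 genes in no class included 3 past 2-fold, Cd300c2, Lilr4b and Ms4a4c. The general myeloid list held Lilr4b only as Gp49a, its symbol in GENCODE vM1, which had no row. Lilr4b is therefore left out of the myeloid counts above.

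**Figure D4:**
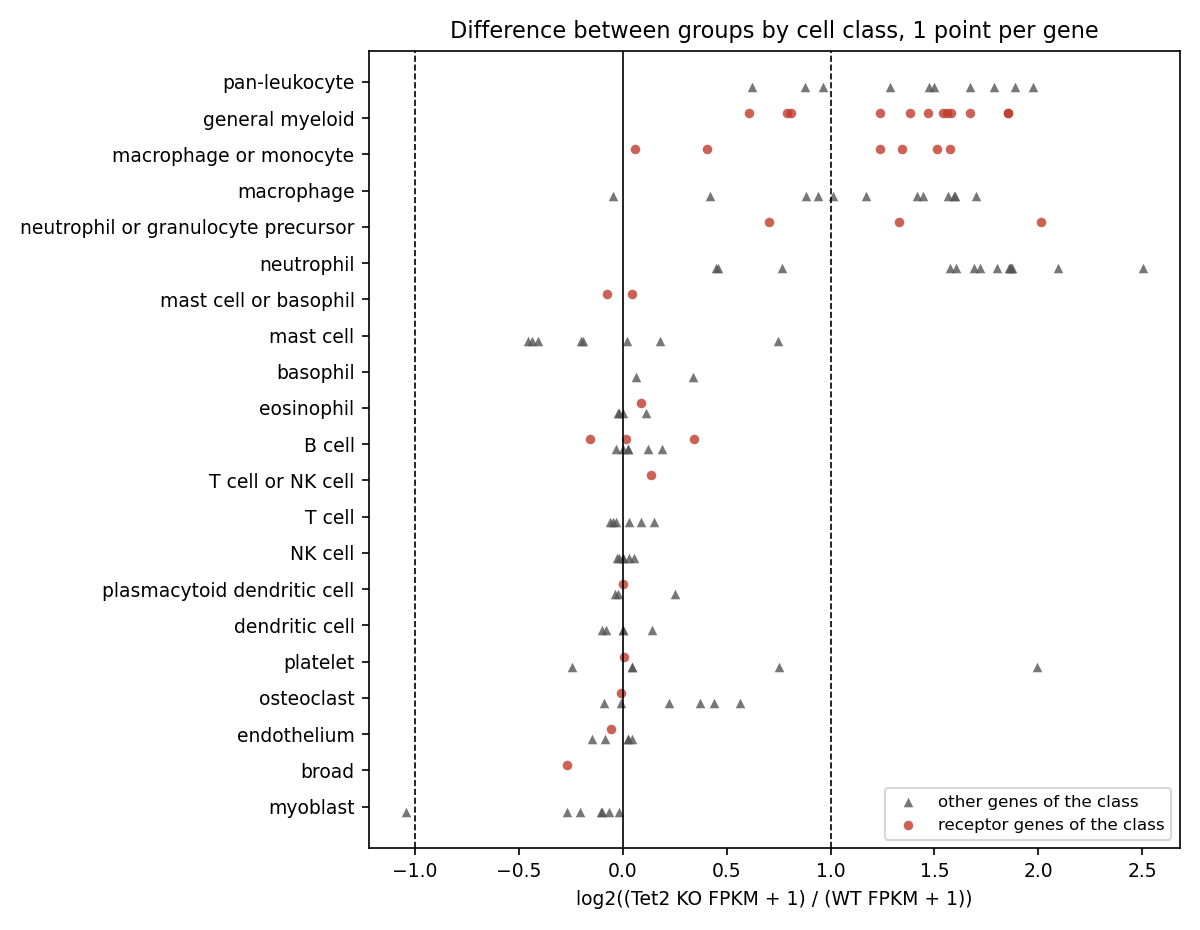
Log2 ratio (x axis) of each gene, by the cell class it marks (rows), for receptor genes (red circles) and other genes of the class (grey triangles), with the solid line at 0 and dashed lines at 2-fold either way. Points of the pan-leukocyte, myeloid, macrophage and neutrophil rows spread up to 2.50, while those of lymphocyte, mast cell and dendritic cell rows lie between the dashed lines. Genes under 1 FPKM in both groups cannot reach these lines.

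Leukocyte genes outside the receptor families were also higher in Tet2 KO. Although the cells had been sorted as CD45- and CD11b-, Ptprc (CD45) stood at 5.67 FPKM in Tet2 KO against 1.36 FPKM in WT, and Itgam (CD11b) at 10.1 FPKM and 2.09 FPKM. All 10 pan-leukocyte genes were higher in Tet2 KO, where 39.7% of all genes were, and 7 were past 2-fold, where 1.02% were. Log2 ratios ran from 0.62 (Cytip) to 1.98 (Coro1a, 27.0 FPKM in Tet2 KO compared with 6.12 FPKM in WT), with a median of 1.49. Cytip was under 1 FPKM in both groups with an FPKM ratio of 4.05, and the lowest FPKM ratio was that of Arhgdib, 1.86. The summed FPKM of the 10 genes was 174.8 in Tet2 KO and 63.3 in WT, with Arhgdib the most abundant (61.0 FPKM in Tet2 KO, 32.7 FPKM in WT). None of the 10 was at 0 in either group. The part of leukocytes among the cultured cells in the receptor values was not tested.

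Macrophage and neutrophil genes were higher as well. Of 12 macrophage genes in the table, 11 were higher in Tet2 KO, where 39.7% of all genes were, and 8 were past 2-fold, where 1.02% were. Their median log2 ratio was 1.29, with sums of 100.6 FPKM in Tet2 KO against 33.0 FPKM in WT. The highest log2 ratio was that of the monocyte chemokine receptor Ccr2 (1.70), and the most abundant gene was the complement gene C1qc, with 17.9 FPKM in Tet2 KO compared with 5.28 FPKM in WT. Cx3cr1 was near 0 in both groups, with 0.0350 FPKM in Tet2 KO against 0.0691 FPKM in WT, the lowest log2 ratio of the list. All 14 neutrophil genes were higher and 11 were past 2-fold, beside the same shares of all genes. Their median log2 ratio was 1.76, with sums of 2063 FPKM in Tet2 KO compared with 579.5 FPKM in WT. S100a8, a calcium-binding protein of neutrophils and monocytes, was the most abundant at 941.1 FPKM in Tet2 KO against 285.2 FPKM in WT, Ltf (lactoferrin) had the highest log2 ratio, 2.50, and Cxcr2 the lowest, 0.45. None of these macrophage or neutrophil genes was at 0 in either group, and their part in the receptor values was not tested.

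The defining genes of lymphocytes, eosinophils and dendritic cells were low, as were their receptors. No B cell (6 genes), T cell (6), NK cell (6), eosinophil (4) or dendritic cell (5) gene was past 2-fold. Of all genes, 1.02% were at least 2-fold higher and 0.585% lower. Under 1 FPKM in both groups were 5 B cell, 5 T cell, 6 NK cell, 4 eosinophil and 4 dendritic cell genes, and 12502 of all 24445 genes. There the log2 ratio cannot reach 1, so the count does not show that they were alike between groups. Summed FPKM in Tet2 KO and WT was 1.41 and 1.05 for the B cell genes, 1.23 and 1.04 for the T cell genes, 0.202 and 0.175 for the NK cell genes, 0.195 and 0.133 for the eosinophil genes and 2.61 and 2.78 for the dendritic cell genes. Klrd1 and Gzma, both NK cell genes, were listed at 0 in both groups, and Ncr1, Cd3d, Cd3e and Cd3g in 1 group each. The most abundant of these lists' genes were Blnk (1.01 and 0.761 FPKM), Lck (1.09 and 0.880 FPKM), Prf1 (0.0963 and 0.0751 FPKM), Prg2 (0.169 and 0.0809 FPKM) and Zbtb46 (2.16 and 2.39 FPKM).

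No mast cell or basophil gene was past 2-fold on the log2 scale, where 1.02% of all genes were at least 2-fold higher and 0.585% lower. Of 8 mast cell genes, 5 were lower in Tet2 KO, and log2 ratios ran from -0.46 (Tpsb2) to 0.75 (Hdc), with sums of 12.8 FPKM in Tet2 KO compared with 12.5 FPKM in WT. Gata2, which other cells also express, made up most of these sums, with 9.61 and 8.37 FPKM. Hdc stood at 1.21 FPKM in Tet2 KO against 0.314 FPKM in WT, an FPKM ratio of 3.85. Mcpt4 stood at 0.0228 FPKM in Tet2 KO compared with 0.359 FPKM in WT, a ratio of 0.0636. Of the 8 mast cell genes, 5 were under 1 FPKM in both groups, where the log2 ratio can reach neither 1 nor -1. Mcpt8, a basophil protease, was abundant in both groups, with 65.9 FPKM in Tet2 KO against 62.9 FPKM in WT, while the IgE receptor chains Fcer1a and Ms4a2 that basophils and mast cells display were under 0.2 FPKM. The basophil list's other gene, Il3ra, had a log2 ratio of 0.34.

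Of the remaining lists, 1 of 5 platelet genes was past 2-fold, where 1.02% of all genes were at least 2-fold higher. It was Pf4, with 27.6 FPKM in Tet2 KO compared with 6.18 FPKM in WT. Ppbp stood at 1.22 FPKM in Tet2 KO against 0.318 FPKM in WT, an FPKM ratio of 3.85 but a log2 ratio of only 0.75. Gp1ba was lowest with a log2 ratio of -0.24. None of 6 osteoclast genes was past 2-fold, from Dcstamp (-0.09, listed at 0 in Tet2 KO) to Atp6v0d2 (0.56), with Ctsk the most abundant at 1.51 and 0.852 FPKM. None of 5 endothelial genes was, from Cdh5 (-0.15) to Tie1 (0.05), with Pecam1 (CD31) the most abundant at 1.48 FPKM in Tet2 KO against 1.63 FPKM in WT. Of these lists, 2 platelet, 5 osteoclast and 4 endothelial genes were under 1 FPKM in both groups, where the log2 ratio cannot reach 1. Bst2 and Tcf4 dominated the 3 genes listed for plasmacytoid dendritic cells and are found in many cells. Bst2 stood at 203.5 and 170.7 FPKM, with the list's highest log2 ratio, 0.25, and Ccr9 had the lowest, -0.04.

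The cells carried the genes of their label. All 7 myoblast genes were present, among them Myod1 with 313.3 FPKM in Tet2 KO compared with 335.7 FPKM in WT, Des, the most abundant in Tet2 KO, with 371.8 and 448.6 FPKM, and Pax7, with the highest log2 ratio, -0.02. All 7 were lower in Tet2 KO, as were 10681 of all 24445 genes. The myogenic factor Myog was the only one at least 2-fold lower, where 0.585% of all genes were. It stood at 268.1 FPKM in Tet2 KO against 553.6 FPKM in WT. Of the other sort markers, Itga7 was abundant, with 190.1 FPKM in Tet2 KO compared with 199.0 FPKM in WT. Cd34 stood at 6.74 and 3.03 FPKM. Ly6a (Sca1), although sorted against, stood at 287.8 and 278.0 FPKM after culture.

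Genes below the receptors in their signalling pathway were taken as a list of 40 adaptors, kinases and phosphatases. In Tet2 KO 31 were higher, where 39.7% of all genes were, and 9 were lower. At least 2-fold higher were 8 of the 40, where 1.02% of all genes were, and none was at least 2-fold lower, where 0.585% were. The median log2 ratio of the list was 0.33. The adaptor Tyrobp, which carries the ITAM for Trem2, Siglec15 and others, had the highest log2 ratio, 1.85, with 51.1 FPKM in Tet2 KO against 13.4 FPKM in WT. Hcst, the partner adaptor of Tyrobp, stood at 1.37 FPKM in Tet2 KO compared with 0.362 FPKM in WT, short of 2-fold on the log2 scale. The kinase Syk stood at 2.57 FPKM in Tet2 KO against 0.646 FPKM in WT, a log2 ratio of 1.12. Others past 2-fold included the exchange factor Vav1, the phospholipase Plcg2 and the adaptor Pik3ap1, which blood cells use.

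The phosphatases that act at ITIMs also differed among themselves. Ptpn6 (SHP-1), the form of blood cells, stood at 12.9 FPKM in Tet2 KO compared with 5.60 FPKM in WT, and Inpp5d (SHIP-1) at 3.25 and 0.971 FPKM, with log2 ratios of 1.08 and 1.11. Ptpn11 (SHP-2), which most cells express and which was the most abundant of the 40, stood at 56.7 FPKM in Tet2 KO against 55.6 FPKM in WT, a log2 ratio of 0.03. Fyn, a Src family kinase, had the lowest log2 ratio, -0.80, with 15.5 FPKM in Tet2 KO compared with 27.7 FPKM in WT.

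**Figure D5:**
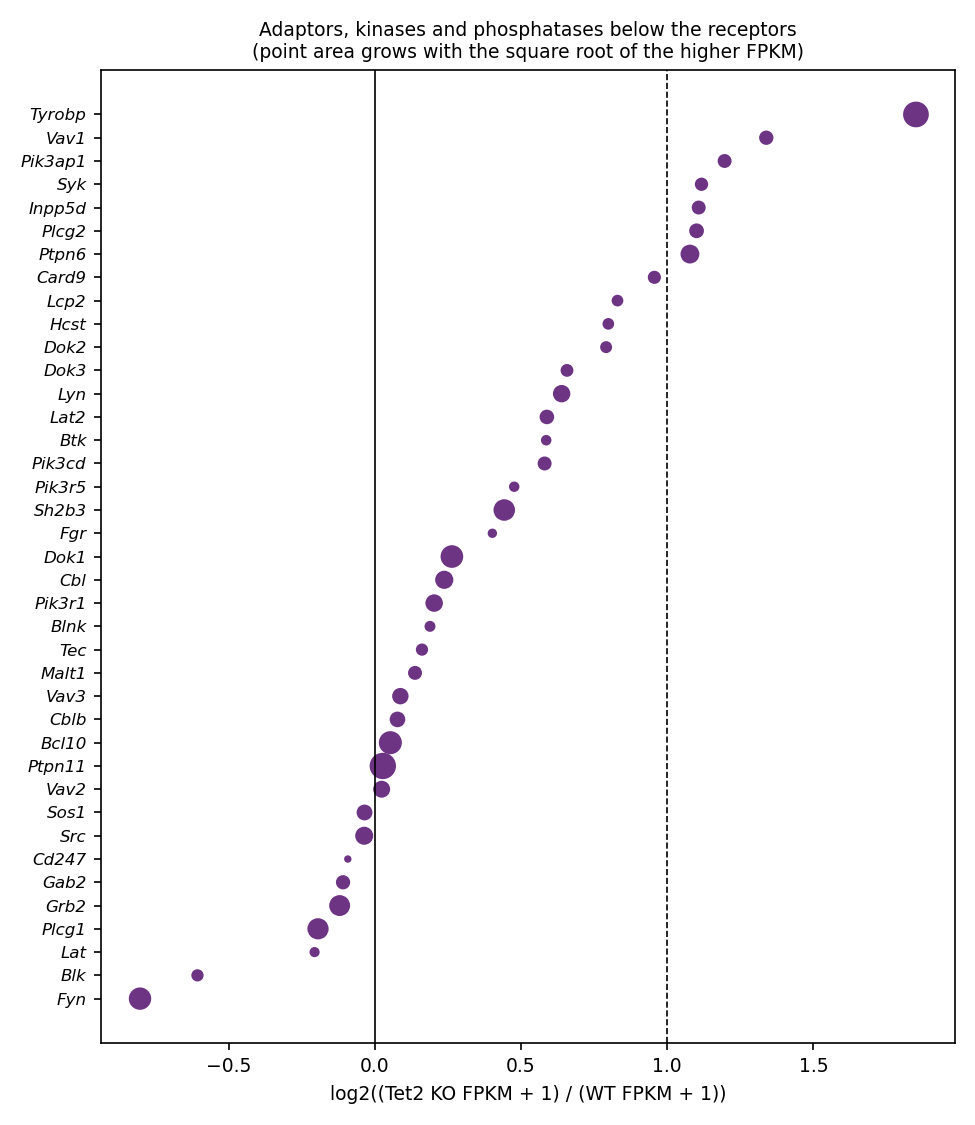
Log2 ratio (x axis) of 39 of the 40 signalling genes, 1 point per gene in order of the ratio, with the point's area growing with the square root of the gene's higher FPKM, the solid line at 0 and the dashed line at 2-fold. Tyrobp stands apart at 1.85, and Ptpn11, the most abundant gene, lies near 0.

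The receptor genes lay in gene groups. When members within 500 kb of each other were joined, 7 groups of at least 2 members held 50 of the 58 genes. On chr1:172890689-173164480 (mm9) lay Fcgr2b, Fcgr4, Fcgr3 and Fcer1g, and all 4 were past 2-fold. On chr10:51200418-51216417 lay Lilrb4a and Lilr4b, both past 2-fold. The Ms4a group on chr19:11036785-11715341 held 17 genes, 6 of them past 2-fold. The Cd300 group on chr11:114751355-115023554 held 9 genes with 2 past 2-fold, and the Trem group on chr17:48371903-48506501 held 6 with 2 past 2-fold. The Pir group on chr7:3664107-4234530 held 9 with 1 past 2-fold, Pirb, and the Siglec group on chr7:50606711-50915531 held 3 with none.

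Within a group, neighbours differed. In the plot of receptor genes by genomic order, the 7 Ms4a genes at the start of the group were all under 1 FPKM, and all 6 Ms4a genes past 2-fold lay in the other part. Ms4a2 lay next to Ms4a3 and yet was under 0.1 FPKM in both groups. In the Fcgr3 group, 8 other genes lay between the members and none of these was past 2-fold. Of the 242 genes of other families inside or within 500 kb of the 7 groups, 5 were at least 2-fold higher (2.07%), namely Arhgap30, Cd48, AW112010, Slc15a3 and Lair1, and 2 were at least 2-fold lower. Over all genes, 1.02% were at least 2-fold higher and 0.585% lower. Among those with a mean of at least 1 FPKM, 2.08% were higher. Fcgr1, on chromosome 3, was past 2-fold with no other receptor gene beside it, and Fcgrt, on chromosome 7, was likewise alone.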

How the data were processed

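Sorted, cultured myoblasts of each genotype gave 2 TruSeq libraries from total RNA. Per the methods and the submitters' processing notes, the authors trimmed reads, aligned them to mm9 with TopHat2 2.0.13 and estimated expression with Cuffdiff 2.2.1. The annotation, and how libraries of a group were combined, are not given in the sources used here. The deposited FPKM column of each group, taken as the authors' value, was used. The table's columns of the authors' own comparison (status, log2 ratio, test statistic, p-value, q-value and call) were not used. Without values per library there was no test, no replicate error and no known depth.

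Differences were log2((Tet2 KO FPKM + 1) / (WT FPKM + 1)), over all genes with no filter on low values, and at least 2-fold was counted. Named were receptor genes at 1 FPKM or more in either group, and below that the highest of each family and the class-defining genes. Of other lists, the extreme and most abundant genes and those at 0 were named. Genes named for contrast within the signalling, mast cell, platelet, myoblast and sort lists were chosen after their values were seen. So were the neighbours of gene groups and the genes past 2-fold in no class. 1 gene of the signalling list is counted but not reported here by name. Members and lists were chosen with earlier results of these data known. Of the macrophage list, Emr1 is an older symbol of Adgre1 and had no row of its own. Of the general myeloid list, Gp49a is the GENCODE vM1 symbol of Lilr4b and had no row, so Lilr4b was counted in no class.

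Table starts had 1 added. Transcripts were those of GENCODE vM1 (NCBIM37, the same build), compared with BLAST+ 2.17.0. Promoters were RefSeq's (GRCm38.p6), placed on mm9 by exact match. Python 3.11.15, numpy 2.4.6, pandas 2.3.3 and matplotlib 3.10.9 were used.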

Additional observations from a re-analysis of the deposited data

How the results depend on the processing

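With 1 combined value per group, no replicate could be left out, and neither error nor depth is known, so a low value carries an unknown and possibly large counting error. No paired analysis was possible because the table gives no value per library. A value with no replicate spread was taken as unmoved within 1.5-fold. Asking for at least 1 FPKM in either group left 24 of the 55 receptor genes above 0. With a pseudocount of 0.1, 31 receptor genes were at least 2-fold higher instead of 18, beside 2.61% of all genes, and at 4-fold 1 was. The receptor median log2 ratio of 0.22 became 1.04 with a pseudocount of 0.1, and the family medians became 1.80 for Trem, 0.81 for Siglec and 1.04 for Lilr and Pir. Over genes with a mean of at least 1 FPKM, which low genes pass through the group where they are high, the medians were 1.43 for all receptors, 1.24 for Ms4a, 1.29 for Cd300, 1.34 for Trem and 1.69 for Lilr and Pir, and the Siglec median turned to -0.0095, because Siglec15 alone was left. The signalling list had 16 genes past the line instead of 8 with a pseudocount of 0.1, and 16 at 1.5-fold, where 538 of all 24445 genes were past it. Scaling to TPM or centring the expressed genes changed no direction. Of 72 alternative values of the 24 named genes' log2 ratios, 51 stayed within 1.5-fold, 21 were larger with a smaller pseudocount or none, and 0 reversed.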
